A study of Mus musculus with 2 samples.

Results

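The 10 genes described here build and brace the photoreceptor outer segment: Prph2, Rom1, Prom1, Cdhr1, Rp1, Rp1l1, Tulp1, Impg1, Impg2 and Fscn2. They were picked by symbol, each symbol names 1 row of the deposited gene table, and together they are 10 of its 32227 genes. Nuclei from mouse retinas at postnatal day 21 were sequenced from 2 genotypes, with 1 library per genotype. The Tet tcKO library came from retinas in which loxP-flanked Tet1, Tet2 and Tet3, the genes for the enzymes that oxidise 5-methylcytosine in DNA, were recombined by a Chx10-Cre-GFP transgene expressed in retinal progenitors. That transgene is mosaic, so a retina can keep cells without recombination, and animals carrying Cre were crossed with each other to limit this. The Cre- library came from animals without the transgene, with genotype given as WT and strain as C57 BL/6J, and no source used here says whether they carried the loxP-flanked alleles. For each genotype, nuclei of at least 2 animals in each of 2 dissociation pools went into the library, so no value has a replicate and no test between genotypes can be made. Every interval below is a 95% interval that covers counting error only and says nothing about variation between animals.

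The outer segment of a rod or cone is a modified cilium filled with stacked membrane discs, on which light is captured. Tetraspanins hold the hairpin rims of the discs, a cadherin and a pentaspan membrane protein sit where new discs form at the base, and microtubule-binding proteins run along the axoneme beside the stack. Proteoglycans of the interphotoreceptor matrix surround the segment, and mutations in most of these genes cause retinal degeneration in people or mice.

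The Cre- library held 7357 nuclei with 11510585 unique molecular identifiers (UMIs), and the Tet tcKO library held 6766 nuclei with 16590747. The annotation deposited with the nuclei called 5214 rods and 265 cones in Cre-, against 6 rods and 3225 cones in Tet tcKO. Those names did not divide the libraries along their markers. The 10 rod markers summed to 11731 counts per 1e+06 UMIs (CPM) in the Cre- cone-annotated nuclei, more than the 9247 CPM of Cre- rods, and the 10 cone markers summed to 1669 and 1425 CPM in the same groups. In the Tet tcKO cone-annotated nuclei the rod markers summed to 5384 CPM and the cone markers to 6036 CPM. Rods and cones were therefore pooled within each library, which gave 5479 Cre- and 3231 Tet tcKO nuclei with median depths of 1046 and 1714 UMIs. In the pool the rod markers summed to 9585 CPM in Cre- nuclei and 5400.0 CPM in Tet tcKO nuclei, the cone markers to 1458 and 6032 CPM and the 8 bipolar markers to 3096 and 2235 CPM, with every marker of these lists detected, and the part of these shifts in the results below was not tested. The pool also differed in its mitochondrial transcripts, which made up 6.98% of UMIs in Cre- and 2.55% in Tet tcKO. In the check of the 15 rod clusters, rod and cone markers both counted as own. Of these clusters, 1 (cluster 32, Cre- only) had a marker of another class, Nefl, among its 10 leading genes and none of its own. Clusters 36 and 45 had the cone marker Pde6h among their 10 leading genes and none of the 10 rod markers. The targeted genes themselves stood at 50.2 and 61.2 CPM (Tet1), 105 and 139 CPM (Tet2) and 180 and 174 CPM (Tet3) over all Cre- and Tet tcKO nuclei, and since whole genes were counted they test neither the recombination nor the labelling.

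Across the pooled rods and cones, 8 of the 10 genes were lower in Tet tcKO and Cdhr1 was higher, while the Rp1l1 interval held 0 and its sign turned under TMM scaling. Over all genes tested there, 31.6% had a ratio below 0. Prph2, Impg1 and Fscn2 were lower by 2-fold or more, a call that 2.58% of the 11377 genes tested met, and no member was higher by 2-fold or more, against 6.67% of genes tested. The members' median log2 ratio of Tet tcKO over Cre- was -0.65, where the median over all genes tested was 0.23, so every ratio below stands against that shift. Scaling by the trimmed mean of M-values (TMM) moved the median of all genes to 0.04 and evened the genes past 2-fold from 759 higher and 293 lower to 442 higher and 456 lower. It also put Rom1 and Rp1 past 2-fold, so that 5 members were counted. Summed over the 10 genes, the level was 5041 CPM in the Cre- pool and 3345 CPM in the Tet tcKO pool.

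**Figure D1:**
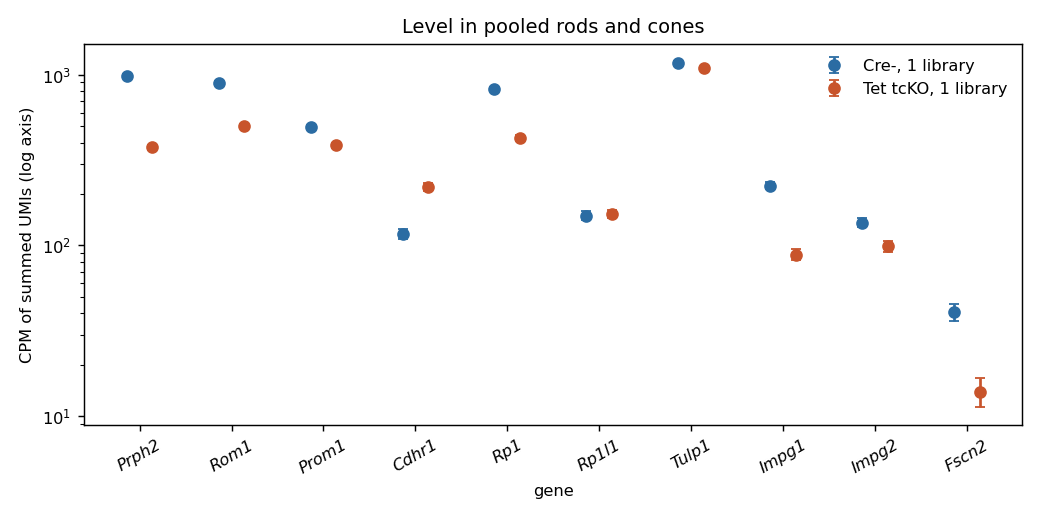
Level of each gene in the pooled rods and cones, in CPM of summed UMIs on a log axis, with points for the Cre- library (blue) and the Tet tcKO library (orange) and bars for the 95% counting interval. Prph2 stands at 987 CPM against 375 CPM, Cdhr1 is higher in Tet tcKO (117 against 220 CPM), and the Rp1l1 intervals overlap.

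The rim tetraspanins were both lower in Tet tcKO. Prph2 encodes peripherin-2, the tetraspanin that curves the disc rim, and lies on the plus strand of chromosome 17 (GRCm39 chr17:47221385-47235859), overlapping no other annotated gene. It had 7476 UMIs in the Cre- pool and 2778 in the Tet tcKO pool, or 987 CPM (965 to 1009) and 375 CPM (361 to 389). The log2 ratio was -1.40 (-1.46 to -1.33), which is 2.63-fold lower in Tet tcKO, and 0.949% of the genes tested had a lower ratio. Rom1 encodes the tetraspanin partner of peripherin-2 and is a compact gene of 1.97 kb on the minus strand (chr19:8904755-8906720). Its level was 898 CPM (877 to 919.5) in Cre- and 500.0 CPM (484 to 516) in Tet tcKO, giving a log2 ratio of -0.84 (-0.90 to -0.79). Prph2 thus had the lower ratio of the pair, and the counting intervals of their ratios did not meet.

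Because the deleted enzymes act on methylated CpG sites, the stretches just before the transcription starts of Prph2 and Rom1, the rim pair, and of Cdhr1, the gene that moved the other way, are shown with each CpG in capitals. They are RefSeq promoter sequences (table build GRCm38.p6), 250 bases long, read 5′ to 3′ on the gene's strand, and each matched GRCm39 exactly at chr17:47221154-47221403 (plus strand), chr19:8906721-8906970 (minus strand) and chr14:36820305-36820554 (minus strand). The starts are those of RefSeq, and the GENCODE spans of Prph2 (from 47221385) and Cdhr1 (to 36820484) reach into these stretches. Most of the Cdhr1 stretch lies inside the GENCODE span of the gene.
Prph2: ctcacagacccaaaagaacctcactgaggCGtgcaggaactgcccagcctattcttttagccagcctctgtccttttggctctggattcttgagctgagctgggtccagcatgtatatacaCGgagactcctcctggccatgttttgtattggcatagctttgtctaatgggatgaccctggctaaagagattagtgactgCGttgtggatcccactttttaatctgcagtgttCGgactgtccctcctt
Rom1: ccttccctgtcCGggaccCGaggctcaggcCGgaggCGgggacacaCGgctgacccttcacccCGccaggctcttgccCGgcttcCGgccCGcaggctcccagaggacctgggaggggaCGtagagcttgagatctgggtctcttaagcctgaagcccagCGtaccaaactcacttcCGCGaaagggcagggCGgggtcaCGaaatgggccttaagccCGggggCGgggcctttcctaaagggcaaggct
Cdhr1: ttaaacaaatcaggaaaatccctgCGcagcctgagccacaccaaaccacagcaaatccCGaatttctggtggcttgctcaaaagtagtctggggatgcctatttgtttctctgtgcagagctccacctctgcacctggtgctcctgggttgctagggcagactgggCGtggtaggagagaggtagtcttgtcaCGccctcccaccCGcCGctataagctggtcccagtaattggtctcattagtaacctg
In these 250 bases Prph2 held 4 CpGs, Rom1 17 and Cdhr1 6. Of the 10 genes, 8 had a promoter in the table, Prom1 with 2. Over the table's 300 bases (250 before and 50 after the start) the counts were 18 in Rom1, 10 in Fscn2, 10 and 4 in the pair of Prom1 promoters, 9 in Cdhr1, 7 each in Prph2 and Tulp1 and 5 each in Impg1 and Impg2, where the median of all 32851 promoters was 7 (quartiles 3 and 20). Of all promoters, 70.3% had fewer CpGs than that of Rom1 and 47.9% fewer than that of Prph2. The relation of CpG count to the ratio of a gene was not tested. The letters GATTA, the core bound by many homeodomain factors, occurred on either strand in the promoters of 5 of the 8 genes (Prph2, Prom1, Tulp1, Impg1 and Impg2) and in 7228 of all 32851 promoters. The longer TAATCC, which contains the core, and TGCTGA occurred in none of the 8, against 7.06% and 19.5% of all promoters. No methylation was measured in these libraries.

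Prom1 and Cdhr1 mark the base of the outer segment and differed in direction. Prom1 encodes prominin-1, a pentaspan protein of membrane protrusions and the open edges of new discs, and spans 108 kb of chromosome 5 (chr5:44150962-44259395, minus strand). Its level was 493 CPM (478 to 510) in Cre- and 385 CPM (371 to 399) in Tet tcKO, giving a log2 ratio of -0.36 (-0.43 to -0.29). The predicted gene Gm42716, counted in the same matrices, lies on the same strand within the Prom1 span and Gm16401 on the opposite strand, so reads of that stretch cannot be placed with certainty. Cdhr1 encodes the photoreceptor cadherin that sits at the edge of forming discs (chr14:36799807-36820484, minus strand). It was the only member whose interval lay above 0 in the pool: 117 CPM (109 to 125) in Cre- and 220.0 CPM (209 to 231) in Tet tcKO, giving a log2 ratio of 0.91 (0.80 to 1.03), with 91.5% of genes tested below it. Under all 9 alternative settings tried for the pool the Cdhr1 ratio stayed above 0, between 0.66 and 1.07.

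The axoneme genes also parted. Rp1 encodes a doublecortin-domain protein that binds the axoneme microtubules and keeps discs aligned. It has the longest span of the 10 genes, 410 kb (chr1:4069780-4479506, minus strand). Its level was 824 CPM (804 to 845) in Cre- and 425 CPM (411 to 440) in Tet tcKO, giving a log2 ratio of -0.95 (-1.02 to -0.89), just short of 2-fold. Rp1l1, its paralog with the same domain type (chr14:64229955-64272474, plus strand), had nearly equal counts, 1129 and 1132 UMIs. That gave 149 CPM (141 to 158) and 153 CPM (144 to 162), a log2 ratio of 0.04 (-0.08 to 0.16), and the sign turned under 5 of the 9 alternatives, from -0.16 with TMM to 0.09 as the highest value. The counting intervals of the pair did not meet. That of Rp1l1 held 0 and lay below the median of all genes tested, 0.23, so the direction of Rp1l1 depended on the scaling.

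Tulp1 encodes a tubby-like protein of the inner segment and cilium that is needed for transport of proteins into the outer segment (chr17:28570489-28584196, minus strand). It had 8884 UMIs in the Cre- pool and 8051 in the Tet tcKO pool. Its level was 1173 CPM (1148 to 1197) in Cre- and 1087 CPM (1063 to 1111) in Tet tcKO, giving a log2 ratio of -0.11 (-0.15 to -0.07). Its share of the members' UMIs in the pool was 23.3% in Cre- and 32.5% in Tet tcKO. Over the same pair of libraries the Prph2 share was 19.6% and 11.2%.

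Of the matrix genes, Impg1 and Impg2 encode proteoglycans that bind hyaluronan around the outer segment. Impg1 (chr9:80220059-80347728, minus strand) stood at 224 CPM (213 to 235) in Cre- and 88.3 CPM (81.6 to 95.3) in Tet tcKO, giving a log2 ratio of -1.34 (-1.48 to -1.21). Impg2 (chr16:56024676-56094119, plus strand), the membrane-spanning paralog, stood at 135 CPM (127 to 144) and 98.7 CPM (91.6 to 106), a log2 ratio of -0.46 (-0.60 to -0.32). Both were lower in Tet tcKO, with Impg1 by the larger ratio. Fscn2, the retinal fascin that bundles actin (chr11:120251983-120258994, plus strand), had only 308 and 102 UMIs. They gave 40.7 CPM (36.2 to 45.5) and 13.8 CPM (11.2 to 16.7), a log2 ratio of -1.56 (-1.90 to -1.23), the lowest of the 10 but with the widest interval.

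The clusters of the deposited annotation show whether a difference was shared by the nuclei of a library. Among clusters with at least 50 nuclei, 15 Cre- and 8 Tet tcKO clusters were annotated as rods or cones. They are groups of nuclei from the same 2 libraries and not replicates. For 2 of the 10 genes, Prph2 and Rom1, every Tet tcKO cluster was below every Cre- cluster, an arrangement that 1.49% of genes tested showed. Prph2 ranged from 719 to 1331 CPM over the Cre- clusters (median 918) and from 284 to 404 CPM over the Tet tcKO clusters (median 349). Rom1 ranged from 770.2 to 980 CPM and from 361 to 583 CPM. No member had every Tet tcKO cluster above every Cre- cluster, against 3.08% of genes tested, and Cdhr1 overlapped at 67.3 to 157 CPM in Cre- and 136 to 281 CPM in Tet tcKO.

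Prom1, Rp1l1, Tulp1 and Impg2 also overlapped between the libraries, and for Impg1 and Rp1 a single Tet tcKO cluster, number 52, reached into the Cre- range. Impg1 ranged from 125 to 294 CPM in Cre- and from 55.5 to 193 CPM in Tet tcKO, and the next highest Tet tcKO value after cluster 52 was 105 CPM. That cluster of 211 nuclei stood apart from the other 7 Tet tcKO clusters in several members at once. It had the lowest Tulp1 (518 CPM, next lowest 917), the highest Rp1 (663 CPM, next highest 475), the highest Impg2 (155 CPM) and no Fscn2 UMI. Its Prph2 and Rom1 levels, 284 and 361 CPM, were the lowest of all 23 clusters. Rp1 ranged from 540.2 to 1069 CPM in Cre- and reached 350.1 to 663 CPM in Tet tcKO. At the lower end of Cre- stood cluster 44, with the lowest Prph2, Prom1, Rp1, Rp1l1 and Impg1 of the Cre- clusters and 13.8% mitochondrial UMIs, the highest share among them. The part of mitochondrial RNA in these levels was not tested beyond a total without those 13 genes. That change of total lowers the log2 ratio of every gene in the pool by the same amount. With it the median of all genes tested went from 0.23 to 0.17, Rp1 passed 2-fold at -1.02 and Rp1l1 became -0.03.

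**Figure D2:**
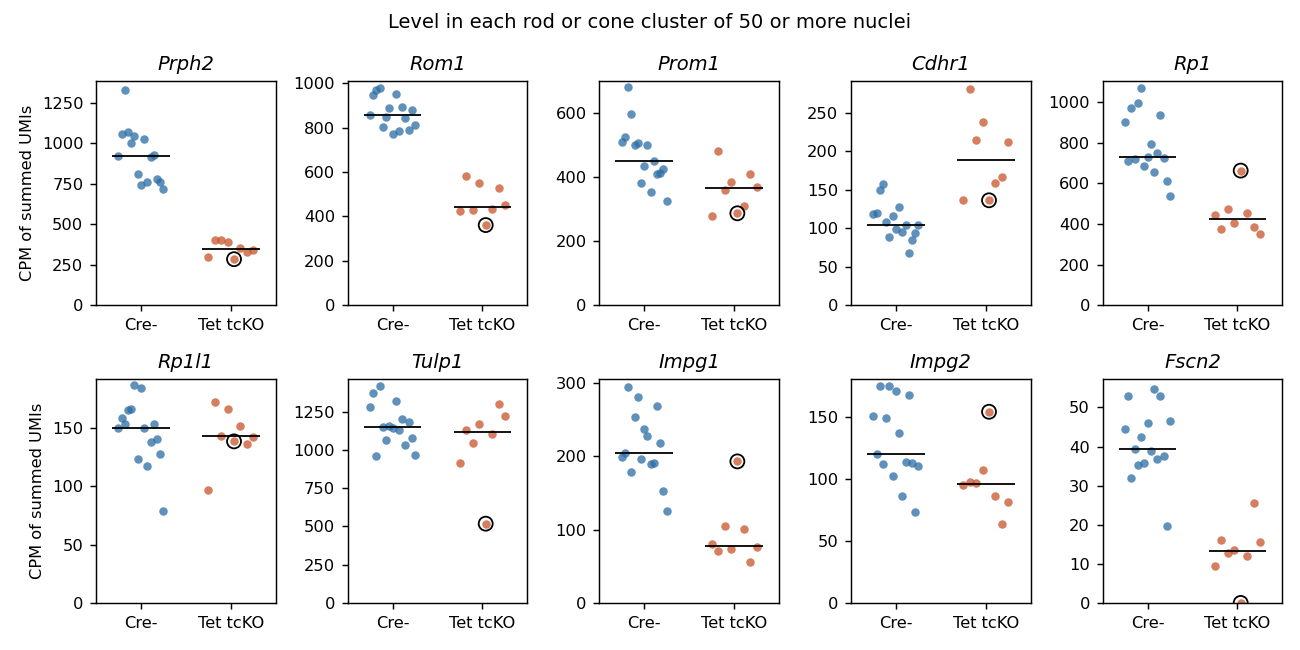
Level of each gene (CPM of summed UMIs, linear axes from 0) in each rod or cone cluster with at least 50 nuclei, 15 for Cre- and 8 for Tet tcKO, with a line at the median of the clusters and a ring around Tet tcKO cluster 52. Prph2 and Rom1 separate completely, the other 8 genes overlap, and cluster 52 is low for Tulp1 and high for Rp1, Impg1 and Impg2.

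In the cone-annotated nuclei alone, 4 genes were lower by 2-fold or more, where 3.48% of genes tested were, and none was higher, where 8.48% were. They were Prph2 (1331 and 373 CPM, log2 ratio -1.84), Impg1 (294 and 87.9 CPM, -1.74), Fscn2 (-1.24) and Rp1 (971 and 424 CPM, -1.19). Tulp1 was higher in Tet tcKO there (964 and 1086 CPM, 0.17 with interval 0.08 to 0.27), at the median of all genes tested in that comparison, 0.17. This comparison sets 1 deep Cre- cluster, with a median of 3744.5 UMIs in 264 nuclei, against 3225 Tet tcKO nuclei with a median of 1715. Counting each gene once per nucleus brought the Prph2 ratio from -1.84 to -0.31 and the Rom1 ratio from -0.96 to 0.0065.

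Over all nuclei of each library, 4 of the 10 genes were lower by 2-fold or more in Tet tcKO, against 2.48% of the 11158 genes tested, and none was higher by that much, against 3.18%. They were Prph2 (763 and 233 CPM), Rom1 (720.3 and 308 CPM), Impg1 (182 and 69.6 CPM) and Fscn2 (32.8 and 9.10 CPM). The members' median log2 ratio was -0.78, beside 0.15 for all genes tested. TMM scaling turned 355 higher and 277 lower genes into 276 and 356. Rods and cones were 74.5% of Cre- nuclei and 47.8% of Tet tcKO nuclei, and they held 65.8% and 44.7% of the UMIs. The difference in each gene was therefore split between the altered mix of classes, taken as shares of UMIs, and the altered level inside each class. This split takes the deposited class names as given. In 4 of the 9 bipolar clusters the 10 leading genes held the cone gene Cngb3 and no bipolar marker. Those clusters held most of the Tet tcKO bipolar-annotated nuclei, so these shares of nuclei and UMIs and the percentages below depend on that naming. Class shares accounted for 17.9% of the Prph2 difference, 21.8% of Rom1, 16.4% of Rp1, 13.8% of Impg1 and 13.2% of Fscn2. They accounted for more of Prom1 (36.3%), Impg2 (38.5%) and Tulp1 (59.2%). For Rp1l1 the class shares alone would have lowered the level by 19.0 CPM, while levels inside the classes added 5.84 CPM. For Cdhr1 the class shares alone would have lowered the level by 22.2 CPM, while levels inside the classes added 65.6 CPM.

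**Figure D3:**
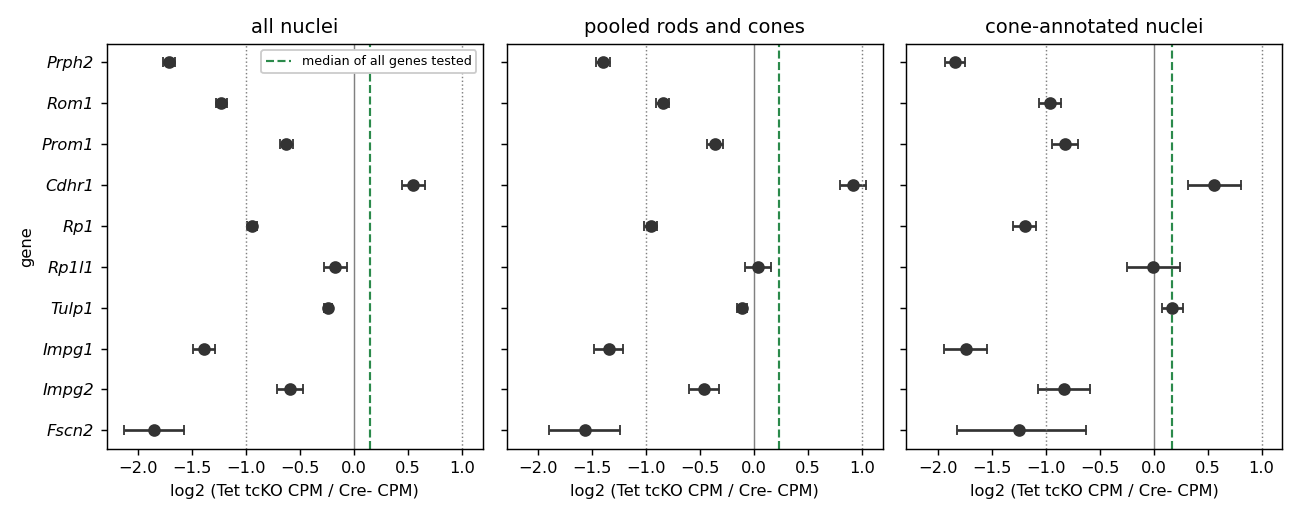
Log2 ratio of Tet tcKO over Cre- for each gene in all nuclei, in the pooled rods and cones and in the cone-annotated nuclei, with 95% counting intervals, a dashed line at the median of all genes tested and dotted lines at 2-fold. Prph2, Impg1 and Fscn2 lie past the 2-fold line in each panel, and Cdhr1 is above 0 in each.

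In Cre-, 8 genes had their highest level in the cone-annotated and 2 (Tulp1 and Fscn2) in the rod-annotated nuclei. For Rom1, Rp1l1 and Fscn2 the counting intervals of rods and cones overlapped, and the Tulp1 interval of rods (1206 CPM) overlapped that of Müller glia (1129.6 CPM). In Tet tcKO, leaving out the class of 6 rod-annotated nuclei, 9 were highest in the cone-annotated nuclei and Rp1 in bipolar-annotated nuclei (504 CPM against 424 CPM), with overlapping intervals of these classes for Tulp1 and Impg1. The 6 rod-annotated nuclei had higher levels of some genes, such as 2419 CPM of Prph2, 3091 CPM of Rom1 and 1613 CPM of Rp1, from 7440 UMIs in all. Of their 18 Prph2 and 23 Rom1 UMIs, 14 and 15 came from 2 nuclei of cluster 45, so these levels do not describe each of the 6. Over retinal ganglion cells (RGCs), which lack an outer segment, the pooled photoreceptors were higher by 3.85-fold (Rom1) to 7.93-fold (Impg2) in Cre- and by 3.63-fold (Impg2) to 6.79-fold (Rp1l1) in Tet tcKO. All 10 genes had UMIs in RGCs of both libraries. The rod markers, too, summed to 1643 CPM in Cre- RGCs and 755 CPM in Tet tcKO RGCs. Prph2 was at 185 CPM in Cre- RGCs and 59.5 CPM in Tet tcKO RGCs, and it made up 19.0% and 10.1% of the members' UMIs there, close to its shares in photoreceptors. Rom1 made up 24.0% and 16.1% of the members' UMIs in RGCs, where it was 17.8% and 14.9% in photoreceptors. The part of free RNA in the levels outside photoreceptors was not tested.

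In amacrine nuclei 4 of 10 genes were lower in Tet tcKO by 2-fold or more, where 6.44% of genes tested were, and in RGCs 2 of the 9 tested were, against 3.20%, while none was higher by that much in either, against 6.44% and 3.53%. In amacrine nuclei the ratios ran from Fscn2 at -1.88 (interval -3.53 to -0.18) to Impg2 at 0.07, with Prph2 at -1.50. Over the 9 genes tested in RGCs they ran from Prph2 at -1.63 to Impg2 at 0.67, the last with an interval of -0.07 to 1.47. Subtracting the RGC level of the same library left the pooled photoreceptor ratio of Prph2 at -1.35 and of Cdhr1 at 1.07. In horizontal nuclei Fscn2 had 1 Cre- UMI and no Tet tcKO UMI among 111025, so no ratio is given.

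**Figure D4:**
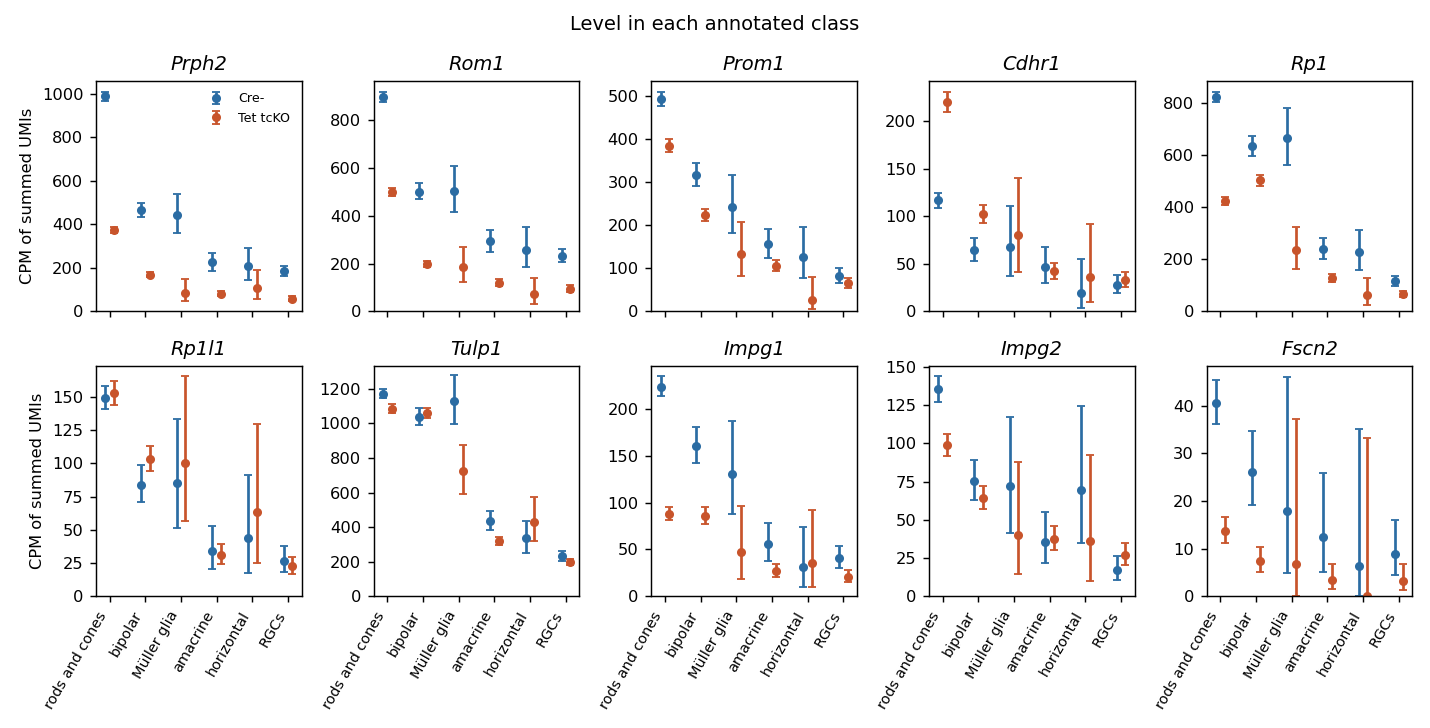
Level of each gene (CPM of summed UMIs, linear axes from 0) in the 6 annotated classes, with rods and cones pooled, for Cre- (blue) and Tet tcKO (orange) with 95% counting intervals. In Tet tcKO, Rp1 and Tulp1 stand at 504 and 1059 CPM in bipolar-annotated nuclei, beside 425 and 1087 CPM in photoreceptors.

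The bipolar class was not compared between genotypes, because in 4 of its 9 clusters the 10 leading genes held Cngb3, a cone channel subunit, and no bipolar marker. In 1 of them, cluster 35, they also held the amacrine marker Tfap2a. The Tulp1 level of the whole bipolar class, 1038 CPM in the Cre- library and 1059 CPM in the other, was close to that of photoreceptors in the same library. Cluster 22, with 214 Tet tcKO and 8 Cre- nuclei, is another of the 4. Its Tet tcKO nuclei had 2260.5 CPM of Tulp1, 945 CPM of Rp1, 374 CPM of Prom1 and 212 CPM of Impg1. Each of those but Prom1 was above every Tet tcKO rod or cone cluster with 50 or more nuclei. Prph2 was at 241 CPM and Rom1 at 248 CPM, below all of those clusters. The cone markers summed to 12693 CPM and the bipolar markers to 1334 CPM in the Tet tcKO nuclei of cluster 22. The other 5 Tet tcKO bipolar clusters with 50 or more nuclei had 2774 to 7437 CPM and 2340 to 7648 CPM. The members together were at 4815 CPM there, the highest of the Tet tcKO bipolar, rod and cone clusters with 50 or more nuclei.

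Depth differed between the libraries, so each nucleus was thinned to 500 UMIs before nuclei with a UMI were counted, and no nucleus was too shallow to be kept. Prph2 was found in 2119 of 5479 Cre- photoreceptor nuclei, 38.7% (37.4 to 40.0), and in 527 of 3231 Tet tcKO nuclei, 16.3% (15.1 to 17.6). In RGCs thinned alike the shares were 12.5% and 3.55%, so both photoreceptor shares lay above that background. Rom1 was found in 36.9% and 21.9%, Rp1 in 33.4% and 20.2%, Impg1 in 10.1% and 4.43%, and Cdhr1 in 5.71% and 10.1%. Tulp1 was found in similar shares, 45.7% (44.4 to 47.1) and 44.0% (42.3 to 45.7). Without thinning the Rom1 shares were 67.9% and 66.3% and the Prom1 shares 45.9% and 54.9%, the latter in the opposite order to its CPM.

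The number of members seen per nucleus followed the same order. After thinning, a photoreceptor nucleus held UMIs of 2.06 members on average in Cre- and 1.46 in Tet tcKO. None of the 10 was seen in 8.27% of Cre- and 18.6% of Tet tcKO photoreceptor nuclei, and 3 or more were seen in 33.0% and 15.8%. In RGCs the averages were 0.536 and 0.324. Without thinning the averages in photoreceptors were 3.97 and 4.26, in the reverse order, at median depths of 1046 and 1714 UMIs.

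**Figure D5:**
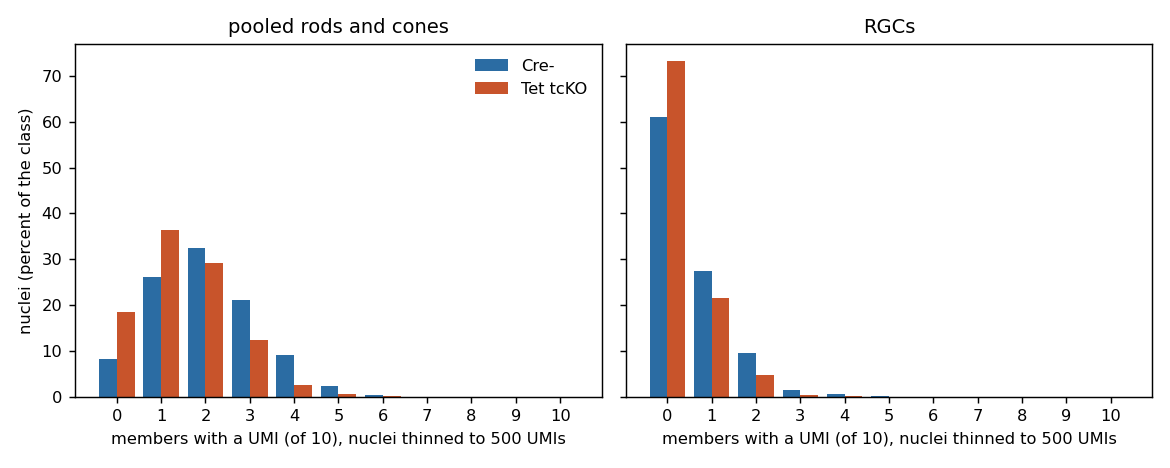
Percent of nuclei by the number of the 10 genes with a UMI, after thinning each nucleus to 500 UMIs, in the pooled rods and cones and in RGCs of Cre- (blue) and Tet tcKO (orange). Nuclei with no member make up 8.27% and 18.6% of photoreceptors, and RGCs give the background with 61.0% and 73.3%.

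A list of 22 further genes of the outer segment and its cilium put these values in context. Cnga1 and Cngb1 of this list are also among the 10 rod markers summed above, so they are not independent of that sum. In the pooled rods and cones 5 of the 22 were lower by 2-fold or more (2.58% of genes tested) and none was higher by that much (6.67%), with a median log2 ratio of -0.50. The 5 were Cnga1 (940 and 266 CPM) and Cngb1 (336 and 166 CPM), subunits of the rod cyclic-nucleotide-gated channel, Slc24a1 (484 and 141 CPM), the rod sodium-calcium-potassium exchanger, Arl3 (291 and 112 CPM), a small GTPase of ciliary transport, and Cep290 (918 and 401 CPM), of the transition zone. Further genes had intervals below 0 short of 2-fold. Among them, Pcare (-0.95), an actin regulator of disc formation, Atp8a2 (-0.85), a lipid flippase of discs, Ttll5 (-0.67), Abca4 (-0.63), the retinoid transporter of the disc rim, Kif3a (-0.55), Prcd (-0.44) and Unc119 (-0.38) were lower, and Rpgrip1 was at -0.03 (-0.06 to -0.01). The intervals of Mak (-0.05), Rpgr (0.02), Rbp3 (268 and 269 CPM) and Ift88 (-0.17) held 0, as did that of 1 gene under 50 CPM. Spata7 (0.23), Crb1 (0.27) and Pde6d (0.55) had intervals above 0, near or above the median of all genes. Cnga1 (-1.82) and Slc24a1 (-1.78) thus had lower ratios than any of the 10 members.

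Of 15 paralogs of the members, 7 passed the minimum of 10 CPM in either library of the pool. None of these was past 2-fold, and their median was 0.28. This outcome depends on the filter. A paralog at 9.11 CPM in Cre- passed only through its 11.1 CPM in Tet tcKO, and its ratio is that median. Another at the same Cre- level had 3.64 CPM in Tet tcKO and was left out, with a log2 ratio of -1.32 (-2.02 to -0.66). Tub (225 and 234 CPM) and Tulp4 (119.9 and 165 CPM), relatives of Tulp1, had log2 ratios of 0.06 and 0.46, and Tulp3 (46.3 and 74.4 CPM) one of 0.68. Dclk1 (91.9 and 133 CPM) and Dclk2 (58.7 and 70.6 CPM), doublecortin-like kinases that share the domain of Rp1, had 0.53 and 0.27. The median of the 7 paralogs that passed stood near that of all genes tested, 0.23, and the members' median below it. With the filter acting on the paralogs in this way, the contrast was not tested.

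Over 13 groups, each a class of at least 30 nuclei in 1 library, the genes with profiles most like the members' mean included Mdm1 (Pearson's r 0.985), Agpat3 (0.982), Ptp4a3 (0.979) and AI847159 (0.977), out of 6984 genes. The groups share libraries, depth and background RNA, so these values describe the 13 groups only. Among the members the correlation with that mean ran from 0.795 for Cdhr1 to 0.971 for Rp1. The gene most like each member was Tlcd3b for Prph2, Nr2e3 for Rom1, Gm42716 for Prom1, Hnrnpk for Cdhr1, Agpat3 for Rp1, Mak for Rp1l1, Casz1 for Tulp1, Cplx4 for Impg1, Gm11342 for Impg2 and Pcare for Fscn2, with r between 0.948 and 0.991. Since Gm42716 overlaps Prom1 on the same strand, reads cannot be placed between them with certainty, and the part of this in their likeness was not tested.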

How the data were processed

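Single-nucleus RNA-seq libraries were made with the PIPseq T20 3′ kit, 1 for each of 2 genotypes. The authors aligned and counted reads with pipseeker 3.3.0 on GRCm39 and reduced ambient RNA with CellBender. They kept nuclei by their number of transcripts and mitochondrial share in Monocle3, and deposited UMI counts, cluster numbers and cell type names. Counts were summed per library and class and divided by the class total (CPM). Intervals (Poisson for CPM, conditional for ratios, Clopper-Pearson for shares, at 95%) cover counting error only, and the libraries hold 11510585 and 16590747 UMIs. A gene was called past 2-fold if it reached 10 CPM in 1 library, and the floor for a fold was 3 counts. Interval coverage was checked on simulated counts. Annotated classes were checked against markers among the 10 leading genes of each cluster. No doublet caller was run, and 1 barcode was shared by the libraries. For shares, each nucleus was thinned to 500 UMIs. Named were the 10 members, related genes and paralogs with 50 CPM or more, the 5 genes most like the members' mean and 1 per member, and Tet1, Tet2 and Tet3. Members and lists were chosen with earlier results of these data known. Gene models came from GENCODE and promoters from RefSeq. Python 3.11.15, numpy 2.4.6, scipy 1.17.1 and pandas 2.3.3 were used. Alternatives covered the scaling, filter, depth, background, class shares and leading nuclei. A gene that these rules name is not reported here.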

Additional observations from a re-analysis of the deposited data

Results flagged for a closer look

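Tulp1 was higher in Tet tcKO in the cone-annotated nuclei (log2 ratio 0.17, counting interval 0.08 to 0.27) and lower in amacrine nuclei (-0.44), RGCs (-0.24) and Müller glia (-0.64), with counting intervals on opposite sides of 0. The ratio in cone-annotated nuclei exceeded that in amacrine nuclei by 0.61, that in RGCs by 0.41 and that in Müller glia by 0.81. With 1 library per genotype the difference was not tested, and the median of all genes tested was itself 0.17 in cone-annotated nuclei. In the pooled rods and cones Tulp1 was lower in Tet tcKO, at -0.11 (-0.15 to -0.07), so its direction in photoreceptors depended on the cone name. Cluster 11 held 264 of the 265 Cre- cone-annotated nuclei. It had the lowest Tulp1 of the 15 Cre- rod and cone clusters with at least 50 nuclei, 964 CPM beside a median of 1153 CPM.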

How the results depend on the processing

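No paired analysis was possible because each genotype has 1 library. Of 260 ratios of single genes recomputed under alternative settings, 249 kept their sign, 182 stayed within the counting interval and 76 moved outside it with the same sign or from an interval that held 0. The ratio of Rp1l1 over all nuclei turned to 0.065 when the Cre- mix of classes was given to either library, and that of Rom1 in cone-annotated nuclei turned to 0.0065 when each gene was counted once per nucleus; the cause was not tested. The members' median over all nuclei was -0.89 with TMM and with median-of-ratios factors, -0.68 counting a gene once per nucleus, -1.004 after subtracting the RGC level and -0.63 with the Cre- mix of classes. In pooled rods and cones it was -0.84 with TMM and -0.82 with median-of-ratios factors, and each counted 5 members lower by 2-fold or more in place of 3. In cone-annotated nuclei, counting each gene once per nucleus gave a median of -0.21 and 2 members in place of 4. Genes past 2-fold over all nuclei were 1049 higher and 819 lower at a filter of 1 CPM and 1982 and 1423 with no filter. In pooled rods and cones they were 1831 and 1014 at 1 CPM, 2428 and 1420 with no filter, 442 and 456 with TMM, and 465 and 432 with median-of-ratios factors. Leaving out cluster 32 moved no member of the pool across 2-fold. Ranked by Spearman's rho, 2 of the 5 genes most like the members' mean remained. Depth limits Fscn2 most, and no value here carries variation between animals.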
